A study of Mus musculus with 12 samples.

Results

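The effect of dexamethasone (Dex, a synthetic glucocorticoid) on the DNA binding of the glucocorticoid receptor (GR) was compared between cells that had received tumour necrosis factor (TNF) and cells that had not. The data are GR chromatin immunoprecipitation libraries (ChIP-seq) from BWTG3 cells, a mouse hepatoma line, made with a rabbit antibody against GR. All cells were starved for 24 h in Optimem medium, and stimulation in the treated groups lasted 3 h in total. The group NI (3 libraries) is named without either agent, DEX (3 libraries) received 1 µM Dex, TNF (2 libraries) received 1000 U/ml recombinant TNF, and TNFDEX (3 libraries) received that TNF 1 h before the same dose of Dex. If the total of 3 h counts from the TNF, Dex acted for less time in TNFDEX than in DEX. An effect of TNF and one of a shorter time with Dex could then not be told apart. The cells are a tumour line in culture, and the labelled cell type cannot be checked here because binding near a gene does not show its expression. The series asks how TNF reshapes GR activity in glucocorticoid resistance. Members were all regions in the 11 deposited peak lists, with peaks that shared at least 1 bp merged. This gave 47493 regions of mm10 with a median width of 173 bp, which are all regions of the series with a peak list. Of these, 28267 (59.5%) had a peak in a single library and 118 had a peak in every library. Levels are normalized tag counts, which the authors scaled to 20000000 tags per library, and a library without a peak at a region has an unknown level there.

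GR is a nuclear receptor that is held in the cytoplasm by chaperones until a glucocorticoid binds it. It then enters the nucleus and binds glucocorticoid response elements (GREs), which are pairs of inverted hexamers, or it joins other factors at their own sites. In hepatocytes it drives genes of glucose, amino acid and lipid metabolism and induces inhibitors of inflammation. TNF activates the transcription factors NF-kB and AP-1, whose target genes GR is known to repress or, for some acute phase genes, to induce together with them.

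Sequence could be read only where a region lay in a gene's promoter window, the 250 bases before and 50 after a start site in the RefSeq table of GRCm38.p6. Of the 47493 regions, 1823 overlapped such a window by at least 100 bp. The following pieces are the parts of 7 regions upstream of the start site, read on the gene's strand. Mt1, Sgk1, Slc10a6 and Map3k6 stand for regions that Dex gained in both backgrounds, Fgb and Gm34401 for regions called only with TNF plus Dex, and Rce1 for a region called with Dex and in no TNFDEX library. All 7 pieces were chosen after their values had been seen. Capitals mark matches on either strand to the GRE letters GNACANNNTGTNC, to the single receptor hexamer AGAACA, which can lie within a GRE, or to the AP-1 letters TGANTCA. The kappaB consensus of NF-kB was also searched and has no match in these 7 pieces.
Mt1 promoter, shared gain, chr8:94178889-94179088, plus strand: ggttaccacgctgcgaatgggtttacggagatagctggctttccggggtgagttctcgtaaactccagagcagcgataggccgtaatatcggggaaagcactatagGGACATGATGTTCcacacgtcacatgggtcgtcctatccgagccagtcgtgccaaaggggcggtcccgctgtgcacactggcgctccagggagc
Sgk1 promoter, shared gain, chr10:21993640-21993802, plus strand: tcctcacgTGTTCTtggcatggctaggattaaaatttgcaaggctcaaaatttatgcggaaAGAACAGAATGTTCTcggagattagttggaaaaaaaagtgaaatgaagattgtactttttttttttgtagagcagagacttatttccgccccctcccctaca
Slc10a6 promoter, shared gain, chr5:103629459-103629644, minus strand: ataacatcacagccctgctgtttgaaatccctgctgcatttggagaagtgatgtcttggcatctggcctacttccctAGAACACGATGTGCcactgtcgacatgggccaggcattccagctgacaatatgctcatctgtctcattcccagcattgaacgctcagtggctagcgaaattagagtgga
Map3k6 promoter, shared gain, chr4:133240568-133240730, plus strand: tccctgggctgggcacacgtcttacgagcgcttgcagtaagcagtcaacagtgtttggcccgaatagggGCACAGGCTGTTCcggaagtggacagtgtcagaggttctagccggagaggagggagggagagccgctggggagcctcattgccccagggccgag
Fgb promoter, called with TNF plus Dex alone, chr3:83049892-83050108, minus strand: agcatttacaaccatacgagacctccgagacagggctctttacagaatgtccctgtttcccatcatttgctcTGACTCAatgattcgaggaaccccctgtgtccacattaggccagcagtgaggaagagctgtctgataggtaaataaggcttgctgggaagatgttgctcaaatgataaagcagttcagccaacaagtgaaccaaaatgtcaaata
Gm34401 promoter, called with TNF plus Dex alone, chr2:75285458-75285547, minus strand: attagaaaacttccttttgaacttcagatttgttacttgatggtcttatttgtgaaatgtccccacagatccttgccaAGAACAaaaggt
Rce1 promoter, not called with TNF plus Dex, chr19:4625424-4625603, minus strand: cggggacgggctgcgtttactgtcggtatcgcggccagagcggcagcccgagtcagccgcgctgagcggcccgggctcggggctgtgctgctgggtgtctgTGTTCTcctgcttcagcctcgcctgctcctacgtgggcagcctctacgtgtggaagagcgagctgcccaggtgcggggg

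Mt1, which encodes a metallothionein and is a classical glucocorticoid target, has its GRE match beginning 94 bases before the start site. Its promoter region held 22.3, 34.7 and 70.2 normalized tags in the DEX libraries and 62.2, 50.4 and 123.4 in the TNFDEX libraries, with no peak in any NI or TNF library. The groups overlapped. In Sgk1, a kinase gene that glucocorticoids induce, the GRE match begins 188 bases before the start, and the printed part holds 3 hexamer matches. That region held 28.8, 43.8 and 27.6 tags with Dex and 32.3, 11.3 and 28 with TNF plus Dex. Fgb encodes the beta chain of fibrinogen, an acute phase protein. Its promoter region had an AP-1 match 173 bases before the start, no GRE or hexamer match in the printed part, and 18.2, 9.8 and 23 tags in the TNFDEX libraries with no peak in the other 8. The Rce1 promoter, of a gene for a protease that trims prenylated proteins, held 9.4, 11.7 and 9.9 tags with Dex and 9.6 in TNF replicate 2, where the lowest values of the lists lie between 5.4 and 6.6.

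In the whole 300-base windows, the GRE letters occurred in 12 of the 37 windows of shared gains (32.4%) and in 0.475% of all 32851 windows. A gain with TNF alone is a region that Dex gained after TNF but not without it, by the call rule given below. A gain without TNF alone is the reverse. The GRE letters occurred in 4 of 26 windows of gains with TNF alone (15.4%) and in 2 of 33 of gains without TNF alone (6.06%). The hexamer AGAACA occurred in 18 of 37 shared windows (48.6%), in 26.9% of windows gained with TNF alone and 30.3% of those gained without TNF alone, against 19.0% of all windows. The kappaB consensus occurred in 5 of the 26 windows gained with TNF alone (19.2%), in 2 of the 33 gained without TNF alone (6.06%), in 3 of the 37 shared windows (8.11%) and in 4.51% of all windows. AP-1 letters occurred in 11.5% of windows gained with TNF alone, 15.2% of those gained without TNF alone, 13.5% of shared windows and 7.81% of all windows. In the 1823 windows with any region the shares were 1.59% for the GRE letters, 14.1% for the hexamer, 6.14% for the kappaB consensus and 7.79% for AP-1 letters. The shares of the gain classes are descriptions of few windows, and a match is not a site shown to be bound.

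Dex raised the number of GR peaks in both backgrounds, and the sizes of the Dex effect could not be told apart at this replication. NI libraries held 5441, 6501 and 2522 nuclear peaks and DEX libraries 10479, 13020 and 12953. TNF libraries held 8942 and 4130, and TNFDEX libraries 22589, 8639 and 14041. Every DEX library lay above every NI library, while TNFDEX replicate 2 lay below TNF replicate 1. The mean Dex effect on log2 peak number was 1.44 without TNF (2.71-fold) and 1.20 with TNF (2.30-fold). Their difference of -0.23 had an exact two-sided permutation p of 0.775, with TNF labels exchanged within Dex status (200 arrangements, smallest possible p 0.005) and 0.925 after adjustment over 4 whole-library values.

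The share of tags in nuclear peaks was 0.288%, 0.439% and 0.106% in NI, 1.09%, 1.58% and 1.87% in DEX, 0.722% and 0.179% in TNF, and 2.91%, 0.847% and 1.94% in TNFDEX. The Dex effect on it was 1.24 percentage points without TNF and 1.45 with TNF, a difference of 0.210 (exact permutation p = 0.785, adjusted 0.925). The share of peaks within 1 kb of a gene end changed by -9.39 points with Dex alone and by -8.61 when Dex followed TNF, a difference of 0.776 points (exact permutation p = 0.85, adjusted 0.925). Peaks more than 50 kb from any protein-coding gene took 2.03 points more with Dex alone and 2.25 more when Dex followed TNF, a difference of 0.219 points (exact permutation p = 0.925, adjusted 0.925).

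The libraries fell into 2 sets by the share of their tags in mitochondrial peaks, which the labels do not describe. It was 0.00645% to 0.0348% in 6 libraries (NI 1 and 2, DEX 1 and 2, TNF 1, TNFDEX 1) and 0.355% to 0.541% in the other 5. Within the low set the difference of the Dex effects on log2 peak number was 0.36, and within the high set it was -0.95. The difference also turned positive without NI replicate 3 (0.18), without TNF replicate 1 (0.32) and without TNFDEX replicate 2 (0.12). With the labels exchanged only within these sets the difference was -0.10 (exact permutation p = 0.907, smallest possible 0.0185). Depth was 39228805 to 46425427 tags in the libraries without TNF plus Dex and 48225044 to 51141996 in the TNFDEX libraries. The part of depth and of the mitochondrial share in these values was not tested.

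**Figure D1:**
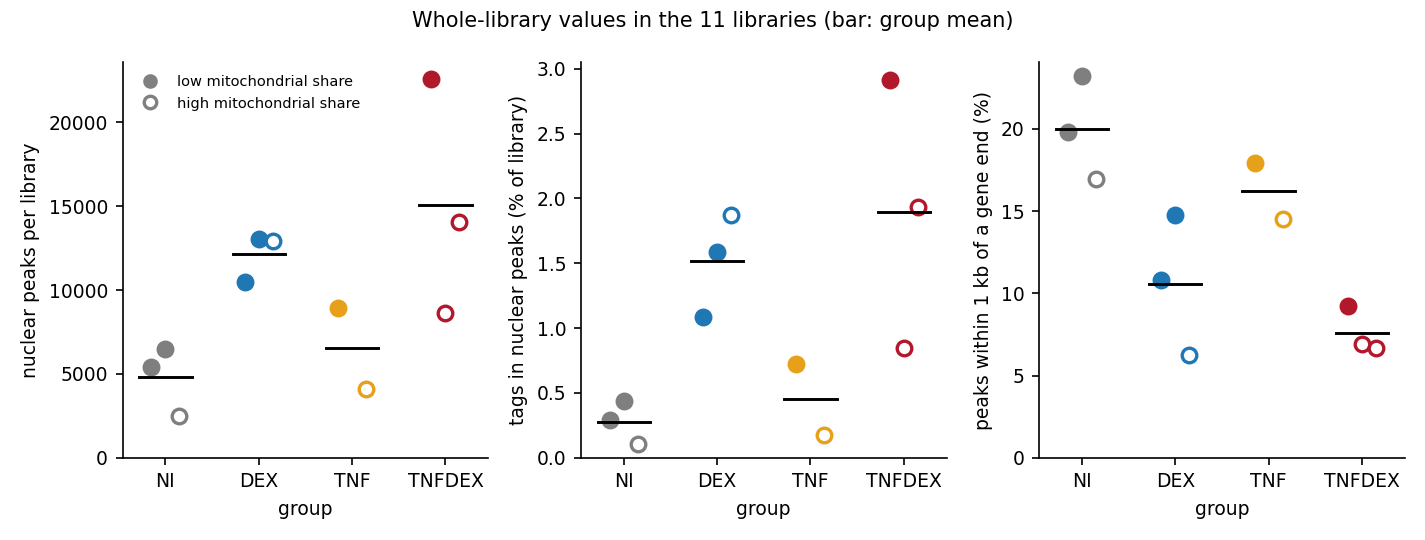
Each point is 1 library, plotted by group for the number of nuclear peaks, the percentage of tags in nuclear peaks and the percentage of peaks within 1 kb of a gene end; bars are group means and open points have a high mitochondrial share. DEX libraries hold 10479 to 13020 peaks and TNFDEX libraries 8639 to 22589, so the TNFDEX libraries spread more widely.

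At the 118 regions with a peak in every library, none responded to Dex differently under TNF by the test used. These include a region of mitochondrial DNA nearest to CYTB, while the whole-library values above count nuclear peaks alone. The fit (limma on log2 normalized tag counts scaled by trimmed means, Benjamini-Hochberg adjusted) called 0 of 118 regions for the difference between TNFDEX minus TNF and DEX minus NI (0%). None had an unadjusted p under 0.05, and the lowest adjusted p was 0.990. The differences ran from -0.73 to 1.08 on the log2 scale, and 117 of 118 were within 1. Their median was -0.05 and their median standard error 0.43, which limits the differences that could be detected. Without scaling beyond the authors' totals the median difference was -0.57 (8 of 118 above 0), and with the medians of the libraries set equal it was 0.11, with 0 regions called by either. The scaling by trimmed means removes a change that most tested regions share, so Dex effects here are relative to the typical tested region. Their medians were -0.02 without TNF and -0.15 with TNF. By that measure Dex raised the signal at 13 of these regions without TNF and at 10 with TNF (limma adjusted p under 0.05). It lowered the signal at 0 in either. The 2 Dex effects had the same sign at 100 of the 118 regions and correlated across regions with a Pearson r of 0.889 and a Spearman rho of 0.799. They use no common library, but they share the regions and the scaling, and regions are not replicates.

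These regions are few and atypical, because a peak without Dex was required. Slc16a10 encodes a transporter of aromatic amino acids and is a clear Dex-responsive case. Its region inside the gene (chr10:40118915-40119279) held 22.3, 44.0 and 10.2 tags in NI and 55.0, 82.6 and 78.8 in DEX. It held 40.0 and 9.6 in TNF and 99.1, 45.8 and 79.4 in TNFDEX. The Dex effect after scaling was 0.78 without TNF and 1.44 with TNF, a difference of 0.66 ± 0.35 (SE, limma adjusted p = 0.990). Atp10a, a phospholipid flippase gene, had the opposite order. Its region (chr7:58746774-58747012) held 15.8, 34.8 and 9.2 tags in NI, 69.4, 100.4 and 110.7 in DEX, 42.6 and 25.2 in TNF, and 111.6, 43.4 and 92.1 in TNFDEX. The scaled Dex effect there was 1.47 without TNF and 0.80 with TNF, a difference of -0.67 ± 0.44 (SE, limma adjusted p = 0.990).

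Others with the lowest p and a larger Dex effect with TNF lay nearest to Btg1, an antiproliferative gene (0.67 ± 0.35 SE, 279 kb away), Cpsf1, a subunit of the mRNA cleavage complex (1.08 ± 0.87), Oosp3, Reg3g and Bach2. On the other side lay Stard13 (-0.61 ± 0.33 SE), Slc25a13, which encodes a mitochondrial aspartate and glutamate carrier (-0.65 ± 0.38), Dhx35 (-0.73 ± 0.43), Ugp2 and Lrig3. None of them passed. At Cpsf1 the sign turned without TNF replicate 1 (-0.14). At Oosp3, Reg3g, Bach2 and Fam174a it turned without scaling (-0.03, -0.09, -0.21 and -0.20). The fit with imputed peaks described next gave lower values for the 10 regions named on the side of a larger Dex effect with TNF. All but Cpsf1 (0.36) turned negative, from -0.05 at Btg1 and -0.06 at Slc16a10 to -0.41 at Bach2. These regions had a peak in every library, so none of their own values was imputed. Regions on both sides moved down by the same amount, as at Bach2 from 0.31 and at Stard13 from -0.61 to -1.34. That fit was scaled over its own, wider set of regions. The shift therefore comes from the scaling and shows no change at single regions.

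Wider sets gave the same count of 0. With at least 2 libraries of each group (506 regions, missing libraries left out), 0 were called, with 0 at an unadjusted p under 0.05. There, relative to the typical tested region, Dex alone raised 49 regions and lowered 6. Dex after TNF raised 50 and lowered 3 by the same measure, with a Pearson r of 0.887 across regions. When a missing NI or TNF peak was set at the lowest value of that library's list (4023 regions with a peak in all 6 Dex libraries, so most values without Dex were imputed), 0 were called, 212 had an unadjusted p under 0.05, and the smallest adjusted p was 0.121.

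**Figure D2:**
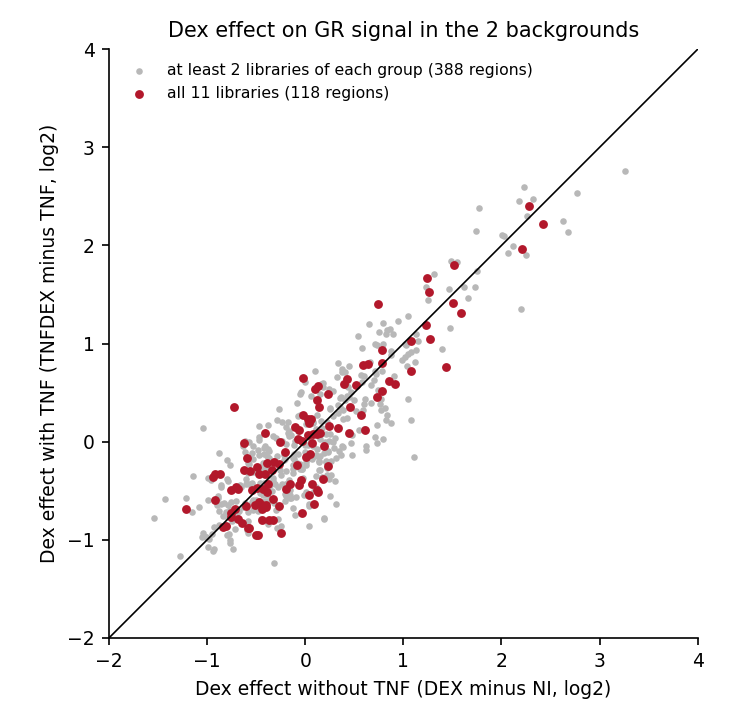
Each point is 1 region, with the limma Dex effect without TNF on the x axis and with TNF on the y axis. Both are log2 differences of normalized tag counts after scaling by trimmed means over the 506 regions. Red marks the 118 regions called in all 11 libraries, gray the others of the 506, and the line is equality. The points run along the line, up to a region near Foxa2 with effects of 3.26 without TNF and 2.76 with TNF.

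The fits at the 118 and 506 regions need peaks without Dex, so regions with no peak called without Dex were also read by their calls. A region was counted as gained without TNF when all 3 DEX and none of the 3 NI libraries held a peak, and as gained with TNF when all 3 TNFDEX and neither TNF library did. There were 3815 gains without TNF (8.03% of regions) and 3961 with TNF (8.34%), and 2403 regions were in both (5.06%), which is 63.0% of the former and 60.7% of the latter. A further 1412 (2.97%) met the Dex gain rule only without TNF and are called gains without TNF alone. Another 1558 (3.28%) met it only after TNF and are called gains with TNF alone. These are counts by the call rule, with no test. TNF had 2 libraries where NI had 3, so the absence of a peak was asked of fewer libraries there.

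Shared gains had the higher typical signal, with a median region mean of 29.4 tags in DEX, against 17.3 for gains without TNF alone. A shared gain needs a peak in all 6 Dex libraries, and that rule by itself favours stronger regions. The strongest shared gain by the TNFDEX mean lay in Zbtb16 (chr9:48723703-48723882), which encodes a zinc finger repressor that glucocorticoids induce. It held 524.0, 612.8 and 1176.1 tags in DEX and 737.8, 610.5 and 1157.9 in TNFDEX, so the TNFDEX values lay within the range of the DEX values. At Hmcn2 (332.7, 437.9 and 927.1 against 437.5, 426.3 and 859.3) the TNFDEX values also lay within the range of the DEX values. At Cblb, a ubiquitin ligase gene (386.2, 417.6 and 780.6 against 575.6, 463.0 and 870.9), the groups overlapped in part. In each of these, DEX replicate 3 and TNFDEX replicate 3 held the highest values. The region 32 kb from Fkbp5, a chaperone that restrains GR, held 641.0, 759.6 and 680.2 tags in DEX and 596.4, 353.9 and 699.8 in TNFDEX. A region near Eif3h stood apart, with 240.9, 312.5 and 185.7 tags in DEX and 613.8, 413.0 and 759.4 in TNFDEX, and there every TNFDEX library lay above every DEX library.

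Of the 1412 regions gained without TNF alone, many still held TNFDEX peaks. In 432, all 3 TNFDEX libraries held a peak and 1 TNF library did too. In 566, neither TNF library held a peak and 2 TNFDEX libraries did, and the library without a peak was TNFDEX replicate 2, the TNFDEX library with the fewest peaks, in 532 of them. Over all gains without TNF, 95.0% had a peak in at least 2 TNFDEX libraries, and 685 had a peak in 1 TNF library, which was replicate 1, the deeper in peaks, for 671. The strongest of these regions lay in Bcl2l1, an inhibitor of apoptosis (chr2:152806153-152806358). It held 643.5, 828.5 and 788.4 tags in DEX, 848.9, 471.6 and 811.2 in TNFDEX and 16.7 in TNF replicate 1. The region 6.06 kb from Klf9, a glucocorticoid-induced repressor, held 232.5, 268.7 and 240.8 tags in DEX, 267.5, 143.1 and 264.0 in TNFDEX and 21.8 in TNF replicate 1. At both, the TNFDEX and DEX values overlapped, so the calls alone set them apart. The count of 1412 became 880 without TNFDEX replicate 2 and rose to 2403 without DEX replicate 1, which loosens the rule.

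Only 12 of the gains without TNF (0.0253% of regions) had no TNFDEX peak at all. The strongest lay 4.93 kb from Usp18 (chr6:121240799-121240976), the gene of a protease that removes the interferon-induced protein ISG15. It held 29.7, 38.2 and 40.5 tags in the DEX libraries and had no peak in the other 8. A region in the potassium channel gene Kcnh1 (chr1:192454140-192454335) held 34.7, 29.6 and 32.3 tags in DEX and 27.4 in TNF replicate 1. The next were near Dlx3 (25.3, 30.1 and 17.2), in Fmn1 (14.4, 16.3 and 17.7) and near Adm, the adrenomedullin gene (10.9, 17.3 and 13.4). The remaining 7, near Ccdc91, Sub1, Slco4c1, Rce1, Rims2, Ttc6 and Calcrl, had at most 14.6 tags in any DEX library. Leaving out 1 library raised the count of 12 to 34 without TNFDEX replicate 3, 50 without DEX replicate 2, 85 without DEX replicate 1, 133 without DEX replicate 3 and 168 without TNFDEX replicate 1.

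At 27 gains without TNF (0.0569%) both TNF libraries already held a peak. The strongest lay 447 kb from Pdcd1 (chr1:94499809-94500024), with 95.2, 169.3 and 139.6 tags in DEX, 12.2 and 8.7 in TNF, and 165.5, 54.4 and 136.9 in TNFDEX. The region nearest to Eed, a Polycomb gene, held 40.2, 42.3 and 88.3 in DEX, 10.1 and 7.8 in TNF, and 80.5, 46.5 and 114.3 in TNFDEX. In Galnt18 the values were 24.3, 25 and 20.2 in DEX, 14.2 and 6.9 in TNF, and 65.9, 27.8 and 47.7 in TNFDEX. At these 3 regions every TNFDEX library exceeded both TNF libraries, so Dex after TNF was higher there too. The count of 27 was 136 without NI replicate 2, 41 without TNF replicate 1 and 698 without TNF replicate 2.

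Of the 1558 regions gained with TNF alone, 627 had a peak in 2 DEX libraries and 630 in 1, with no NI peak, and 90 had a peak in at least 1 NI library, 72 of them with all 3 DEX libraries called. None had a peak in all 3 NI libraries (0%). Over all gains with TNF, 78.5% had a peak in at least 2 DEX libraries. The count of 1558 was 2426 without TNF replicate 1 and 4275 without TNFDEX replicate 2. A region in Fmnl2, a formin gene (chr2:52998152-52998367), held 163.0, 93.5 and 177.6 tags in TNFDEX, 19.3 and 20.4 in DEX replicates 1 and 2, and no peak in DEX replicate 3. Near D10Wsu102e (chr10:83353674-83353881) the TNFDEX libraries held 99.1, 90.3 and 152.1 tags and DEX replicates 2 and 3 held 12.7 and 19.8. At these 2 regions the lowest TNFDEX value was several times the highest DEX value called. At Sh2d6 and Dph6, by contrast, DEX held 135.3 to 202.0 and 127.4 to 140.2 tags, TNFDEX 88.8 to 190.8 and 59.1 to 174.6, and a weak peak in NI replicate 2 (12.6 and 11.1 tags) put the region outside the gains without TNF.

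In 211 regions (0.444%) all 3 TNFDEX libraries held a peak and no other library did. The strongest (chr2:75285359-75285547), at the start of the transcript Gm34401 whose upstream sequence is printed above, held 49.4, 57.1 and 89.6 tags. Next came regions 10.1 kb from Coa7, an assembly factor of respiratory complexes (61.0, 41.1 and 70.7), in Ptprr, a tyrosine phosphatase gene (49.8, 45.8 and 75.7), in Parva, an actin-binding adhesion gene (53.9, 39.1 and 67.4), and 185 kb from Dusp10, a phosphatase of stress kinases (49.8, 40.3 and 67.4). All 5 lay well above the median of the 211, which was a mean of 13.2 tags. The count was 789 without DEX replicate 3, 344 without TNFDEX replicate 1 and 1057 without TNFDEX replicate 2. Of the 211, 4.74% lay within 1 kb of a gene end, against 4.58% of shared gains and 13.0% of all regions, and 27.5% lay beyond 50 kb of a gene, against 24.8% and 24.7%.

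**Figure D3:**
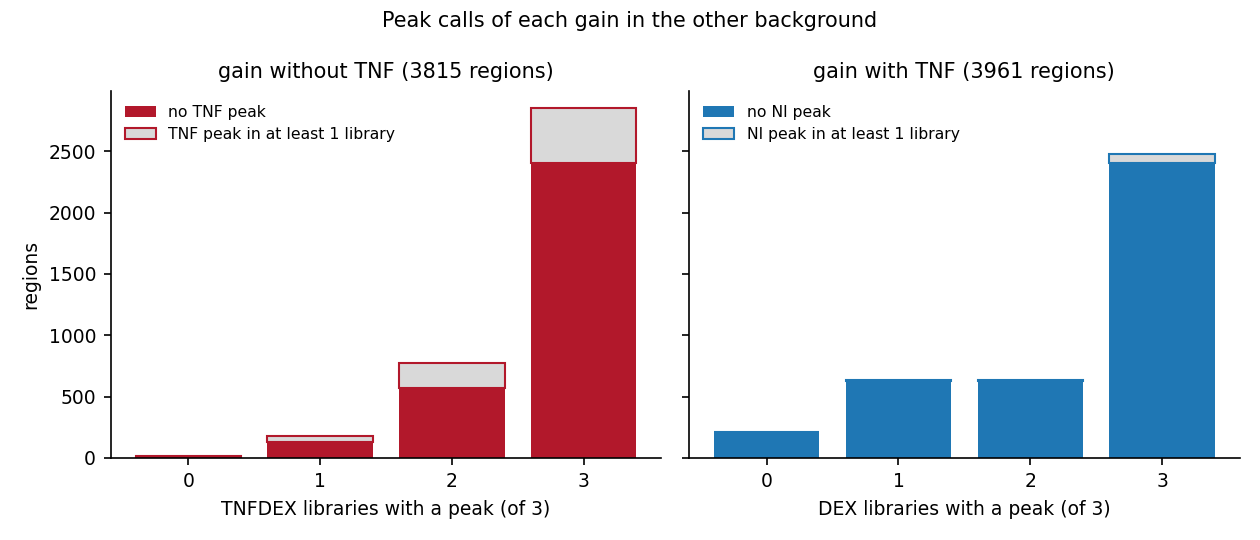
Bars count the 3815 gains without TNF (left) and the 3961 gains with TNF (right) by how many of the 3 Dex libraries of the other background held a peak; gray tops have a peak without Dex in that background. The tallest bars are at 3 libraries, and with no peak in any library of the other background there are 7 regions on the left and 211 on the right. That order depends on the libraries used. Gains with no TNFDEX peak and gains with no DEX or NI peak numbered 188 and 9981 with low mitochondrial share alone. With high share alone they numbered 3500 and 541, and with equal numbers of strongest peaks 15 and 51.

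Losses with Dex were rare. Without TNF, 7 regions (0.0147%) had a peak in all NI libraries and no DEX library, and with TNF, 77 (0.162%) had a peak in both TNF libraries and no TNFDEX library. None was lost in both (0%). All 7 losses without TNF lay inside genes, against 68.8% of the 77 with TNF and 49.2% of all regions. Among the 7 were regions in Rbm12 (11.9, 21.7 and 11.1 tags in NI), Rpl27, a ribosomal protein gene (9.9, 13.5 and 10.7), and Utp18 (9.4, 10.1 and 11.1). At Rbm12 and Rpl27 no library outside NI held a peak, so no TNF library was called there either. The strongest loss with TNF lay in Macrod2 (59.8 and 13.8 tags in TNF, 18.8 and 31.4 in NI replicates 1 and 2), and the next 1.58 kb from Fam20c, a secretory kinase gene (15.2 and 34.4 in TNF and no peak elsewhere). Near gene ends lay 46.8% of the 77 and 71.4% of the 7, against 13.0% of all regions. The count of 7 was 38, 47 and 167 without NI replicate 1, 2 and 3 and 14 without DEX replicate 2. The count of 77 was 3106 without TNF replicate 1, 2883 without TNF replicate 2 and 199 without TNFDEX replicate 1.

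By the share of libraries called, the difference between the Dex effects was above 0 at 23596 regions, 0 at 5925 and below 0 at 17972. Many of these signs rest on 1 call, as 28267 of the 47493 regions (59.5%) had a peak in a single library. A call in TNF, with 2 libraries, moves the value further than a call in a group of 3. The difference was at least 1 at 297 regions and at most -1 at 294, but above 1 at 8 and below -1 at 137. The highest value, 1.67, belonged to a region in Sntb2 that held 9.4 and 8.7 tags in 2 NI libraries, none in DEX or TNF, and 13.3, 9.0 and 9.0 in TNFDEX. The lowest, -1.67, belonged to 3 regions. Near Prickle1 the DEX libraries held 17.8, 22.9 and 18.1 tags, the TNF libraries 22.8 and 20.2, and only TNFDEX replicate 1 held a peak (44.0). Near Robo2 the values were 9.4, 14.3 and 14.6 in DEX, 18.8 and 7.8 in TNF, and 23.6 in TNFDEX replicate 1. At Sike1, the gene of a suppressor of innate kinase signalling, they were 11.4 and 12.2 in DEX, 10.1 and 7.8 in TNF, with no TNFDEX peak.

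Where every Dex library held a peak, limma called few regions different between TNFDEX and DEX. Scaling by trimmed means over these regions sets their typical difference near 0, so that centre cannot show whether TNF moved the typical signal. The median log2 difference was -0.02 with this scaling (1937 regions above 0). Without scaling beyond the authors' totals it was 0.14 (2665 above 0). Of the 4023 regions with a peak in all 6 Dex libraries, limma called 1 higher in TNFDEX (0.0249%) and 0 lower (0%), with 259 at an unadjusted p under 0.05. Among the 2403 of these without an NI or TNF peak the median log2 difference was 0.05 (quartiles -0.17 and 0.30). There, 51 regions (2.12%) were at least 2-fold higher and 2 (0.0832%) at least 2-fold lower. Among the other 1620 tested the median was -0.11, with 11 at least 2-fold higher and 2 lower. At 73 of the 2403 every TNFDEX value lay above every DEX value, and at 5 below. Over all 4023 the counts were 104 (2.59%) and 5 (0.124%).

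With the mitochondrial share as a term in the fit, 25 regions were higher (0.621%) and 1 lower (0.0249%), and 21 of the 26 had no NI or TNF peak. The 10 regions with the lowest p in the fit without that term were all among them. The ratio of mean TNFDEX to mean DEX at these 10 was 3.6 to 8.69 within the libraries of low mitochondrial share (1 TNFDEX against 2 DEX libraries) and 1.56 to 4.6 within those of high share (2 against 1). The groups did not overlap at any of the 10, so the direction of these ratios was fixed by the choice of regions and adds no support. The count of regions higher was 17, with 7 lower, without DEX replicate 3, and 5 without TNFDEX replicate 1. None was called once replicate 1 or 2 of DEX, or replicate 2 or 3 of TNFDEX, was left out.

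The region called lay 89.6 kb from Cemip2, a gene for a hyaluronan-degrading membrane protein (chr19:21947945-21948163). It held 12.9, 10.2 and 15.1 tags in DEX and 100.4, 41.8 and 63.7 in TNFDEX, with no peak in NI or TNF. The difference was 2.20 ± 0.27 on the log2 scale (SE; limma adjusted p = 0.0499988). That is at the threshold, and the call was lost without scaling, with median scaling, at a mean of at least 20 tags, and in 4 of the 6 fits that left out a library.

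Ifitm2 belongs to a family of interferon-induced membrane proteins that restrict virus entry. Its region (chr7:140956475-140956668) held 33.2, 42.3 and 47.4 tags in DEX and 188.7, 144.3 and 209.7 in TNFDEX, with no peak elsewhere. The lowest TNFDEX value was above the highest DEX value, with a difference of 1.99 ± 0.27 (SE; limma adjusted p = 0.0577, and 0.00505 with the mitochondrial term). Ppara encodes the nuclear receptor that drives fatty acid oxidation in liver. Its region (chr15:85776795-85777009) held 52.5, 76.5 and 128.4 tags in DEX and 280.8, 213.5 and 354.0 in TNFDEX, a difference of 1.64 ± 0.29 (SE; limma adjusted p = 0.109, and 0.00682 with the term).

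Csf1, a TNF-inducible gene for a macrophage growth factor, held a region (chr3:107743737-107743925) with 19.8, 25.5 and 21.1 tags in DEX and 85.0, 50.1 and 92.5 in TNFDEX. The difference was 1.58 ± 0.27 (SE; limma adjusted p = 0.104, and 0.0109 with the term). Near Acsl1, which activates fatty acids, the values were 17.4, 21.4 and 15.5 against 90.4, 51.2 and 91.3. Near Rgs4, a regulator of G protein signalling, they were 11.9, 14.3 and 9.9 against 79.6, 32.1 and 55.1, with 17.2 in TNF replicate 1. Near Dcn, the decorin gene, they were 6.9, 13.8 and 19.8 against 52.3, 36.8 and 78.9. In Cd33 they were 13.4, 14.8 and 19.4 against 69.3, 30.5 and 47.7, near Lpp 11.4, 20.9 and 16.8 against 58.1, 34.0 and 67.0, and near Map3k13 24.3, 31.6 and 49.1 against 119.0, 53.2 and 100.3. In all 6 the groups did not overlap, and limma adjusted p-values lay between 0.0816 and 0.136 without the mitochondrial term and between 0.00166 and 0.0200 with it. Among the other regions called higher with the term, a region in Irak3, a brake on Toll-like receptor signalling, was named after its values were seen. It held 21.3, 29.1 and 29.3 tags in DEX against 81.3, 41.5 and 72.8 in TNFDEX (limma adjusted p = 0.0239 with the term).

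**Figure D4:**
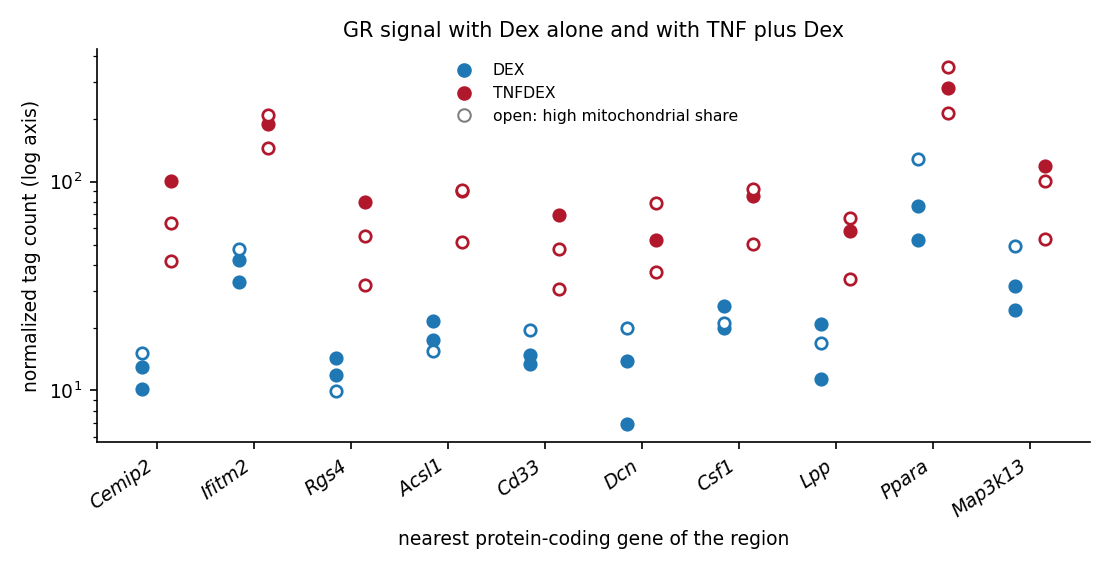
Each point is the normalized tag count of 1 library (log axis) at the 10 regions with the lowest p for a higher value in TNFDEX than in DEX, named by the nearest protein-coding gene; open points have a high mitochondrial share. At each region the TNFDEX points lie above the DEX points, as at Ifitm2 with 144.3 to 209.7 against 33.2 to 47.4.

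On the lower side no region passed. The lowest p belonged to a region 7.98 kb from Arnt2 (chr7:84419721-84419935) with 33.7, 38.7 and 58.6 tags in DEX and 44.4, 12.5 and 26.3 in TNFDEX, a difference of -0.95 ± 0.25 (SE; limma adjusted p = 0.414). In Sesn1, a stress-induced gene that restrains mTOR signalling, the values were 32.2, 44.4 and 56.4 against 41.9, 18.8 and 32.1 (-0.71 ± 0.21). At all 10 of the lowest, the ratio was below 1 in the libraries of high mitochondrial share (0.331 to 0.646), while in those of low share it was above 1 at 5 of 10 (0.791 to 1.33). The region called lower with the mitochondrial term, named after its values were seen, lay 35.9 kb from Ccny and held 9.9, 11.2 and 55.1 tags in DEX and 9.5, 11.7 and 22.2 in TNFDEX, so DEX replicate 3 alone was high.

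Gene lists were read by whether a gene had a region of a class within 50 kb, beside the same share of all 21900 protein-coding genes. That share was 13.3% for shared gains, 8.41% for gains with TNF alone and 7.21% for gains without TNF alone. Of the glucocorticoid response genes, 21 of 32 (65.6%) had a shared gain, 12 (37.5%) a gain with TNF alone and 8 (25%) a gain without TNF alone. Zfp36, which encodes an mRNA-destabilizing protein, had a shared gain 0.174 kb away with 291.5, 354.8 and 529.0 tags in DEX and 468.6, 247.5 and 507.8 in TNFDEX. Near Mt1 and Mt2 a second region (chr8:94171408-94171632) was a gain with TNF alone, with 16.3 and 31.9 tags in DEX replicates 2 and 3 and 48.5, 59.4 and 111.8 in TNFDEX. Sgk1 had a region 1.79 kb away with 85.3, 117.8 and 205.5 tags in DEX, 168.8, 75.9 and 172.7 in TNFDEX and 10.6 in TNF replicate 1.

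In the liver metabolism, hepatocyte identity and clock lists shared gains were the most frequent of the 3 classes, which was not tested. Of liver metabolism genes 13 of 32 (40.6%) had one, against 3 (9.38%) with TNF alone and 4 (12.5%) without TNF alone. Of hepatocyte identity genes the counts were 11 (42.3%), 5 (19.2%) and 9 (34.6%) of 26, so gains without TNF alone were close in number to the shared ones, and of circadian clock genes 8, 3 and 3 of 19. Per1, a clock repressor, held 297.5, 397.7 and 335.6 tags in DEX and 338.4, 179.9 and 369.6 in TNFDEX, and the groups overlapped. Near Hnf4a, a master regulator of hepatocytes, a shared gain held 208.7, 222.8 and 475.2 tags in DEX and 351.3, 189.3 and 427.2 in TNFDEX. Near Igfbp1, an insulin-like growth factor binding protein gene, the values were 72.9, 73.4 and 109.0 in DEX, 119.4, 49.3 and 99.5 in TNFDEX and 17.7 in TNF replicate 1.

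In the acute phase list gains with TNF alone (regions that met the Dex gain rule only after TNF) were the most frequent class. Of its 28 genes, 11 (39.3%) had a gain with TNF alone, 4 (14.3%) a shared gain and 3 (10.7%) a gain without TNF alone, with no test. Several list genes lie side by side and share a region, as Fga, Fgb and Fgg do with the region at the Fgb promoter and Saa1, Saa2, Saa3 and Saa4 with 1 region (chr7:46719614-46719834). These 2 regions account for 7 of the 11 genes, and the others are Il6ra, Steap4, Cp and Lcn2. The region at the serum amyloid A genes held 21.5 tags in DEX replicate 3 and 17.4, 26.2 and 32.5 in TNFDEX. Lbp, which encodes the lipopolysaccharide binding protein, had a shared gain with 147.7, 189.1 and 339.5 tags in DEX and 281.2, 208.4 and 382.0 in TNFDEX.

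Of 40 NF-kB and TNF targets, 8 (20%) had a shared gain, 4 (10%) a gain with TNF alone and 2 (5%) a gain without TNF alone. A region in Tnfaip3, the gene of the NF-kB inhibitor A20 (chr10:19009397-19009583), held 8.4 and 19.8 tags in DEX replicates 1 and 3 and 55.2, 36.8 and 66.2 in TNFDEX. A region in Cflar, which blocks caspase 8, was called only in TNFDEX, with 24.5, 9.8 and 13.6 tags. In Nfkbia, the gene of the inhibitor IkB alpha, a shared gain held 171.0, 205.0 and 162.0 tags in DEX and 248.0, 63.0 and 178.9 in TNFDEX. So the regions at Tnfaip3 and Csf1 had higher values with TNF plus Dex in every library than any DEX value called. The region at Nfkbia did not. Among the list's other strongest shared gains, the groups also overlapped at Tnfaip8, Nfkbie, Tnfrsf1a, Tnfaip2 and Cxcl5, and not at a second Tnfaip3 region.

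Of AP-1 and immediate early genes 5, 5 and 6 of 26 had a shared gain, a gain with TNF alone and a gain without TNF alone. Klf6, an early response zinc finger gene, had a shared gain with 44.1, 53.5 and 57.7 tags in DEX and 95.4, 54.4 and 95.0 in TNFDEX, and a second region 29.2 kb away was called only in TNFDEX (18.7, 10.2 and 17.7). Near Junb, an AP-1 subunit gene, a gain without TNF alone held 28.3, 43.3 and 21.5 tags in DEX, 24.8 in TNF replicate 1, and 69.7 and 33.7 in TNFDEX replicates 1 and 3. Of GR and its cofactors the counts were 6, 2 and 3 of 30, of macrophage markers 3, 1 and 1 of 12, and of stromal and endothelial markers 3, 3 and 2 of 12.

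Counted per library, glucocorticoid response genes with a peak within 50 kb numbered 17, 16 and 6 in NI, 27, 27 and 28 in DEX, 23 and 8 in TNF, and 32, 27 and 29 in TNFDEX. Dex added a mean of 14.3 genes without TNF and 13.8 with TNF. Acute phase genes numbered 5, 11 and 0 in NI, 11, 17 and 16 in DEX, 15 and 11 in TNF, and 19, 21 and 18 in TNFDEX, so Dex added 9.33 without TNF and 6.33 with TNF. In TNF replicate 2 and TNFDEX replicate 2, the libraries with the fewest peaks of their groups, 11 and 21 acute phase genes still had a peak. For GR and its cofactors Dex added 7.67 genes without TNF and 2.33 with TNF, the widest gap among the 10 lists at this distance, and the TNF libraries held 17 and 15. Within 10 kb the differences were -1 for GR and its cofactors and 0.167 for acute phase genes, and within 100 kb they were -4.17 and -3. Over all protein-coding genes the additions were 3666 and 3286.5. These differences were not tested.

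**Figure D5:**
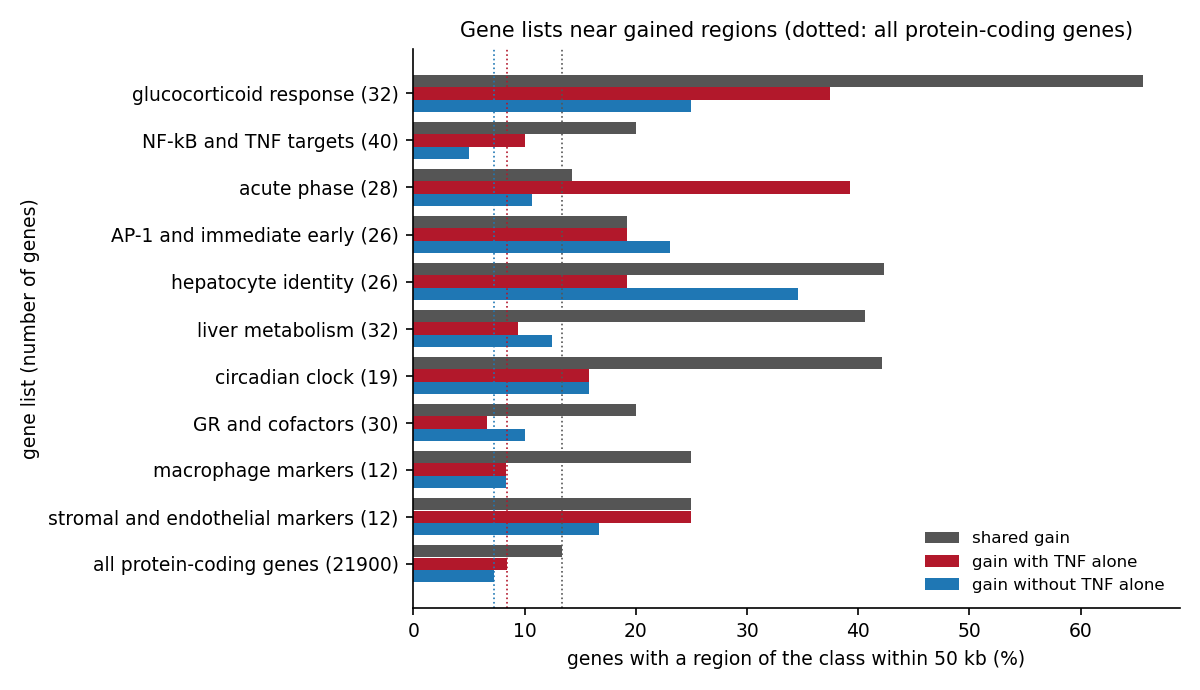
Bars give the percentage of each list's genes with a Dex gain of each class within 50 kb. Gains were shared (gray), counted only after TNF (gain with TNF alone, red) or counted only without TNF (gain without TNF alone, blue). Dotted lines mark all 21900 protein-coding genes. The glucocorticoid response list reaches 65.6% for shared gains, and the acute phase list is highest for gains with TNF alone (39.3%).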

How the data were processed

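GR ChIP-seq was deposited as 1 peak list per library for 11 of the 12 samples, and the input sample is not used here. CASAVA 1.8, Bowtie 1.0.0, HOMER 4.6 and the mm10 build are named in the submitters' processing notes. Per the file headers, peaks were called in each library against 1 input at a false discovery rate of 0.001, a Poisson p of 0.0001, and at least 4-fold over input and over the surrounding 10000 bp. The signal values, normalized tag counts, were scaled by the authors to 20000000 tags, per the file headers. The fold over input is a ratio that the authors deposited for each peak and was used only for a stricter list of at least 8-fold. Library depths were read from the headers.

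Peaks sharing at least 1 bp were merged, a library with several peaks in a region was represented by its largest, and a library without a peak was treated as unknown. Regions were labelled by the nearest of 21900 protein-coding genes of RefSeq GRCm38.p6. Log2 tag counts were scaled by trimmed means (trims of 30% and 5%) and fitted with limma 3.58.1 in R 4.3.3, with Benjamini-Hochberg adjustment and a threshold of 0.05. Whole-library values were tested by exact permutation in Python 3.11.15 with numpy 2.4.6, pandas 2.3.3 and matplotlib 3.10.9. The fits were also run on simulated data with independent noise in each library. That setting lacks the deviations shared by libraries of like mitochondrial share, so it cannot show how the fits behave with them. The regions named are mostly from the 10 with the lowest p in each direction, the 10 strongest of each call class, the 5 with the widest call difference, and up to 3 per gene list and class. Some others, such as those at Irak3 and Ccny, were named after their values were seen. Alternatives were other scalings, filters, pseudocounts, call rules and the removal of each library. The members and lists were chosen with earlier results of these data known. Replicates are biological according to the design text, and p-values measure the spread between these libraries.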

Additional observations from a re-analysis of the deposited data

How the results depend on the processing

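The difference of Dex effects in signal had 0 regions called in every setting run, and the 4 whole-library differences had no adjusted p under 0.05 in any. Leaving out a library moved the difference in log2 peak number between -0.79 and 0.32. The counts of regions by TNFDEX against DEX and by call class moved with the settings. Regions higher in TNFDEX, 1 as reported, numbered 0 without scaling, with medians set equal and at a mean of at least 20 tags, 2 for peaks at least 8-fold over input, with a pseudocount of 5 and with a variance trend (chosen after seeing the data), and 25 with the mitochondrial share as a term, where 1 was lower. Leaving out a library gave 0 to 17 higher and 0 to 7 lower.

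With a peak asked of at least 2 libraries of the Dex group, shared gains numbered 4343, gains with TNF alone 3526, those with no DEX or NI peak 1289, gains without TNF and with no TNFDEX peak 244, and those with a peak in every TNF library 44. With the same number of strongest peaks per library, shared gains numbered 911, gains with TNF alone 312, those with no DEX or NI peak 51, gains without TNF alone 265, those with a peak in every TNF library 3, and losses without and with TNF 59 and 239. At least 8-fold over input left 13 gains with a peak in every TNF library and 2 and 38 losses. With the libraries of low mitochondrial share alone (chosen after seeing the data) gains with TNF alone numbered 13245, those with no DEX or NI peak 9981, no TNFDEX peak 188, every TNF library 936, and losses 182 and 3047. With those of high share alone (also chosen after seeing the data) shared gains numbered 5096, gains without TNF alone 7574, with TNF alone 597, no DEX or NI peak 541, no TNFDEX peak 3500, every TNF library 586, and losses 2239 and 3298. Leaving out 1 library gave 880 to 2403 gains without TNF alone, 1162 to 4275 with TNF alone, 12 to 168 with no TNFDEX peak, 27 to 698 with a peak in every TNF library, 211 to 1057 with no DEX or NI peak, and 7 to 167 and 77 to 3106 losses. Fewer libraries loosen a rule that asks for all or none of them.

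With the replicate number as a replicate block, 18 regions were higher and 0 lower in TNFDEX against DEX, and 0 were called for the difference of Dex effects. The labels do not tie equal numbers to a shared batch. Same-numbered libraries deviated together with correlations of -0.37 to 0.58 in the former fit and -0.64 to 0.74 in the latter. The numbers were therefore not taken to pair them, and not every library correlated best with its own number. Libraries of different groups correlated positively within a set of like mitochondrial share (0.36 to 0.74) and negatively across the sets (-0.73 to -0.21). The main fits hold no term for these sets.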
